A study of Mus musculus with 29 samples.

Results

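The interaction of omega-3 phospholipids with rosiglitazone was examined in mouse liver, as the difference between what the phospholipids did in the presence of the drug and what they did without it. All 29 of the 29 arrays of the series were members, taken as a 2 x 2 design of both supplements, and every probe that was not a control was considered. The contrast was (cHF+PC+R minus cHF+R) minus (cHF+PC minus cHF). It asks whether livers given both supplements had the level that the single changes add up to. A positive value is a level above that sum, and a negative one a level below it. Changes were added as log2 values, so the sum stands for multiplied fold changes. Whether the RNA amounts themselves add up was not tested.

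Rosiglitazone is an agonist of PPAR-gamma, a nuclear receptor that drives fatty acid uptake and lipid storage and is most abundant in adipocytes. EPA and DHA, the marine omega-3 fatty acids, are ligands of PPAR-alpha, which drives fatty acid oxidation in hepatocytes, and they restrain SREBP, the transcription factor family of lipid synthesis. Both PPARs pair with RXR and bind related DNA elements, so their target genes overlap in part, and lipid droplet genes of adipocytes can also be switched on in a fatty liver.

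Livers came from male C57BL/6N mice, aged 3 months when feeding began, that were kept for 7 weeks on a corn oil-based high-fat diet, called cHF. Every group, the controls included, carried this high-fat feeding. The groups were cHF alone (7 livers), cHF+PC, in which a concentrate of EPA and DHA as phospholipids rich in phosphatidylcholine replaced about 7% of the dietary lipid (8 livers), cHF+R with a low dose of rosiglitazone (6 livers), and cHF+PC+R with both (8 livers). The authors had left out 1 high-fat array and 1 array of the drug group before normalization, per the labels. The design has 1 drug dose, 1 time, 1 sex and 1 strain, and it has no group on a diet low in fat.

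Each liver was hybridised in Cy5 against a common Cy3 pool of all samples on a 2-colour Agilent array, and each value below is the log2 ratio of a liver to that pool. In Cy5, 55.0% to 62.5% of spots were well above background on all arrays but cHF replicate 4, which had 80.8%. Precision is limited by how many arrays there are. The correlation of log ratios between arrays had a median of 0.363 within groups and 0.171 between groups, and its lowest value was -0.305. Since the labels state the dyes, the direction of the ratios was kept. Taken over genes, the deviations of an array from its group's means had the largest SD, 0.22, on cHF+R replicate 6. All 13 of the hepatocyte markers on the array were above background on all 29 arrays.

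No gene passed the threshold in the interaction. Of 19509 genes tested with limma, 0 had an adjusted p under 0.05 (0% called), and the smallest adjusted p was 0.156. At an unadjusted p under 0.05 there were 1294 genes (6.63%), of which 549 (2.81%) were above the sum of the single changes and 745 (3.82%) below it. Fabp5 and the probes named Fabp5l2 and Gm6100 were near the top among those below the sum, and P450 enzymes of the Cyp2c family among those above it. The former probes may not measure separate transcripts.

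**Figure D1:**
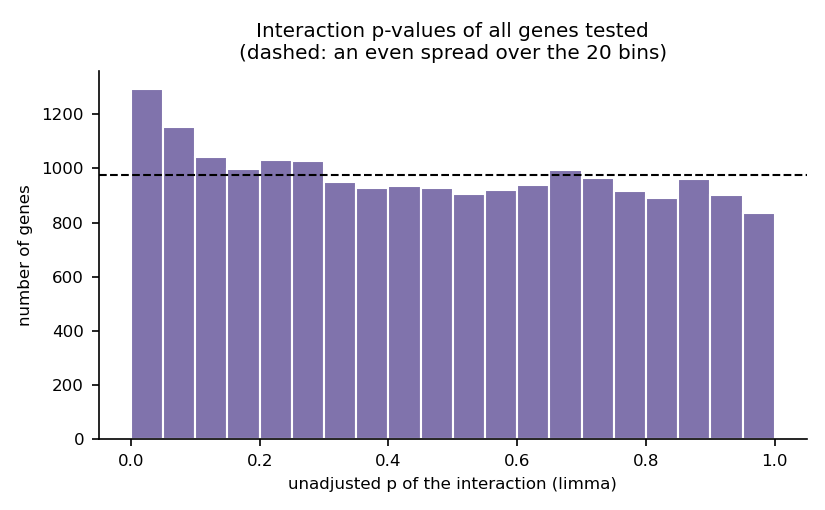
Unadjusted p-values of the interaction from limma (x axis, 20 bins of width 0.05) against the number of genes in each bin (y axis) for the 19509 genes tested, with a dashed line at an even spread over the bins. The lowest bin holds 1294 genes, and the next holds 1152.

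The design's precision sets what a gene that missed the threshold can tell. The median SE of the interaction was 0.083 on the log2 scale and the median 95% interval reached 0.17 to either side. The interval lay within 0.5 of 0 for 17897 genes (91.7%) and within 1 for 19240 genes (98.6%), and 36 genes had an interaction beyond 1. Data were simulated on these 19509 genes, with 50 changed genes per size, picked at random, and independent noise. In them the fit recovered 36% of interactions of 0.3, 82% of 0.6 and 98% of 1. These shares hold for genes picked at random and do not carry over to the genes named below. Several of those had wider errors, such as Fabp5 (SE 0.34), and none of the 36 genes beyond 1 passed. Even in the simulation, most interactions of 0.3 on the log2 scale were not detected.

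Both supplements changed expression on their own in the same fit. The phospholipids changed 766 genes in mice without the drug (3.93% called) and 1391 genes in mice with it (7.13%). Rosiglitazone changed 608 genes in cHF (3.12%), of which 395 rose (2.02%) and 213 fell (1.09%), and 26 genes in cHF+PC (0.133%), of which 23 rose (0.118%) and 3 fell (0.0154%). These comparisons share groups of livers, and the gap between 608 and 26 calls is not a test of a difference. The test of that difference is the interaction.

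Fabp5, the epidermal fatty acid binding protein, carries fatty acids inside cells and is a known PPAR target, and its probe lies on chromosome 3 (10016185 to 10016244 in mm9). In cHF livers its log2 ratio was lowest at -1.32, with a median of -0.87 and a highest value of -0.59, and in cHF+PC livers it was -1.59, -0.84 and -0.06. With rosiglitazone alone it was 0.55, 1.21 and 1.55, over 5 of the 6 arrays, since the spot of cHF+R replicate 3 was left out as an outlier. With both supplements it was -1.21, -0.60 and 0.69. The drug-only livers lay above every liver without the drug, and most livers given both lay with the latter.

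Fabp5 rose with rosiglitazone in cHF by 2.03 ± 0.26 (SE; limma adjusted p = 2.2e-05), a 4.07-fold change. In cHF+PC the same drug gave 0.38 (adjusted p = 0.662). The interaction was -1.65 ± 0.34 (adjusted p = 0.169), and it was negative within 4 of the 4 slides that gave a value, from -3.15 to -1.03. The cHF+PC+R livers with the highest Fabp5 ratios were replicates 6 (0.69) and 7 (0.32), and the only overlap with cHF+R came from replicate 6. Without cHF+PC+R replicate 6 the interaction was -1.81 (adjusted p = 0.0131, in a range over all alternatives of 0.0131 to 0.9999).

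The probes named Fabp5l2 and Gm6100 gave the same picture, and the files do not show that they measure other transcripts. Of 58 overlapping bases, the Gm6100 and Fabp5 probes match in 54, with an unbroken shared run of 50 bases, so they can bind the same RNA. The Fabp5l2 probe matches that of Fabp5 in 24 of 56 bases and that of Gm6100 in 23 of 58. Its longest run shared with either is 8 bases, so shared binding is not shown for it. The interaction was -1.81 ± 0.36 for Fabp5l2 and -1.73 ± 0.34 for Gm6100 (adjusted p = 0.156 for both), with rosiglitazone effects of 2.25 and 2.06 in cHF and 0.45 and 0.34 in cHF+PC. Without cHF+PC+R replicate 6 both passed the threshold (adjusted p = 0.00854 for both). Over all alternatives their adjusted p ranged from 0.00854 to 0.9999 and from 0.00854 to 0.886.

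**Figure D2:**
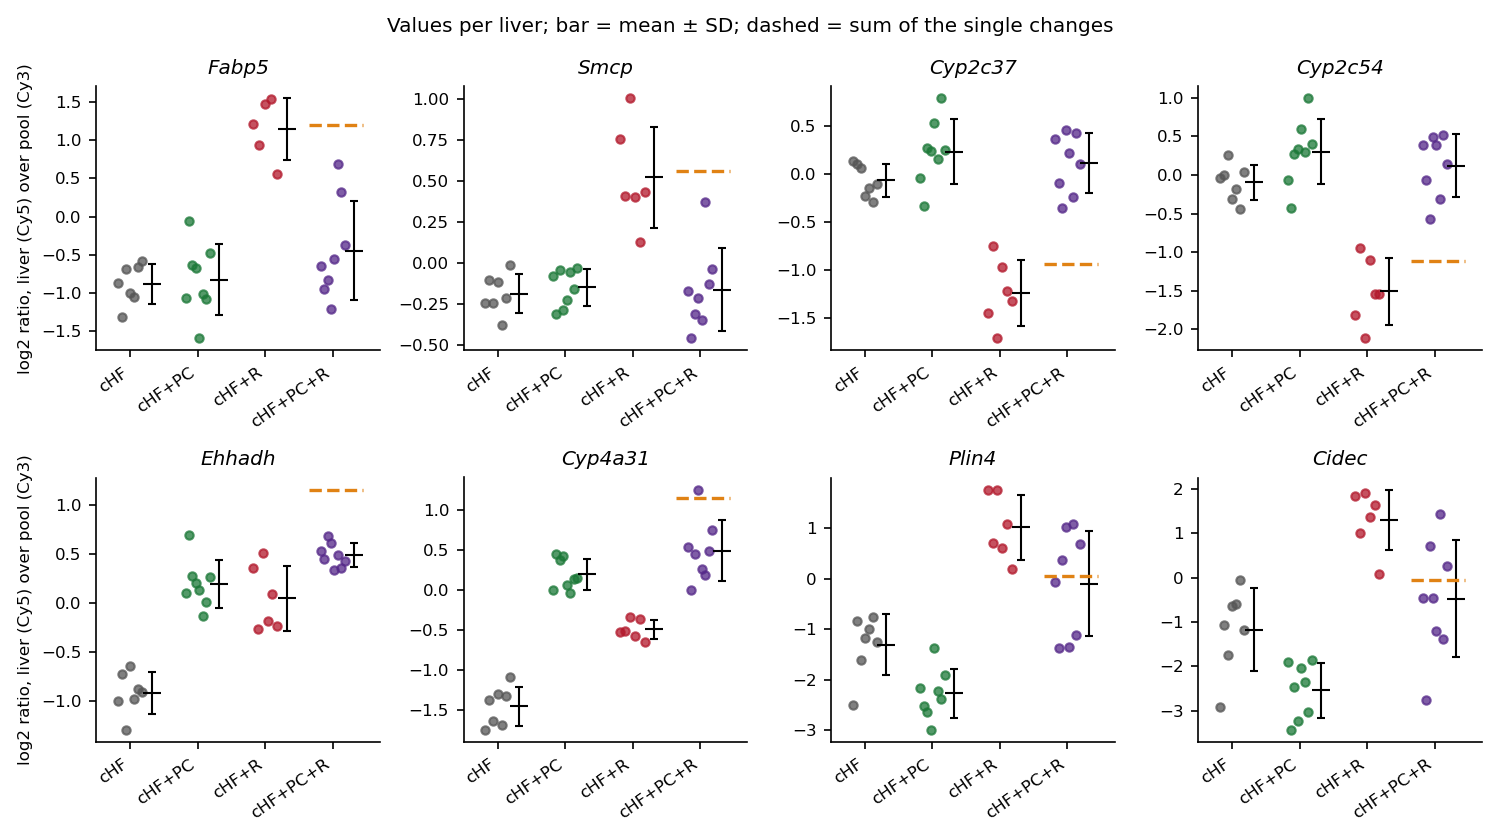
Log2 ratio of each liver to the pool (y axis, 1 point per liver) in the 4 groups (x axis) for 8 genes, with the group mean ± SD beside the points and a dashed line in cHF+PC+R at the sum of the single changes. The mean of livers given both lies below the dashed line for Fabp5, Smcp, Ehhadh and Cyp4a31, above it for Cyp2c37 and Cyp2c54, and close to it for Plin4.

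PPAR-gamma targets and lipid droplet genes, a list that includes Fabp5, lay below the sum of the single changes more often than above it. Of 22 measured members, none passed the threshold, 19 were below the sum and 3 above it (10350 and 9159 of all 19509 genes). At an unadjusted p under 0.05, 5 were below (22.7% of the list, against 3.82% of all genes) and 0 above. The median interaction was -0.29, against -0.01 over all genes, and it kept its sign in all 45 alternatives.

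The other members of that list with an unadjusted p under 0.05 were Abhd5, Hilpda (-0.35 ± 0.14, picked after its value was seen), Pltp and Fabp4. Abhd5, the coactivator of the lipase ATGL, rose with rosiglitazone in cHF by 0.46 and had an effect of -0.01 in cHF+PC, with an interaction of -0.46 ± 0.15 (adjusted p = 0.605). Its other probes gave -0.32 and -0.42. Fabp4, the fatty acid binding protein of adipocytes and macrophages, rose by 1.27 in cHF and had an effect of 0.36 in cHF+PC, with an interaction of -0.91 ± 0.41 (adjusted p = 0.72). Pltp, the phospholipid transfer protein, had an interaction of -0.52 ± 0.23. It was picked after its value was seen.

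Several strong rosiglitazone targets rose with the drug on both diets. Their interactions were also negative, but with 95% intervals that include positive values. Plin4, a lipid droplet coat protein, had a log2 ratio of -2.50, -1.17 and -0.75 (lowest, median and highest) in cHF and -3.00, -2.31 and -1.37 in cHF+PC. It was 0.19, 0.89 and 1.76 in cHF+R and -1.37, 0.14 and 1.08 in cHF+PC+R. Plin4 was higher with the drug on either diet, although the ranges of cHF+PC+R and cHF overlap. It rose with rosiglitazone by 2.32 in cHF and by 2.18 in cHF+PC, and the interaction was -0.15 ± 0.52, with a 95% interval from -1.20 to 0.91.

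Plin4 therefore had a small interaction whose interval still allows a sizeable one either way, and its sign turned in several alternatives, including scaling between arrays (1.75). Cidec, which drives the fusion of lipid droplets, rose by 2.47 in cHF and by 2.06 in cHF+PC (adjusted p = 0.00271 and 0.0494), with an interaction of -0.42 ± 0.66 that turned to 1.21 with scaling between arrays. Its other probe gave -0.85 ± 0.47. Lpl, lipoprotein lipase, rose by 1.53 and 1.06, with an interaction of -0.47 ± 0.29 that was -0.30 without cHF+R replicate 6. Cd36, a fatty acid translocase, rose by 1.61 and 1.05 (adjusted p = 0.0363 for the latter), with an interaction of -0.56 ± 0.32 that was 0.0042 with scaling between arrays.

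Pparg, the drug's receptor, had no rosiglitazone effect past the threshold on either diet. Its ratio fell with the phospholipids by 0.74 in cHF, and the interaction was 0.29 ± 0.26 (adjusted p = 0.892), which was -0.02 on the slides with all 4 groups.

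**Figure D3:**
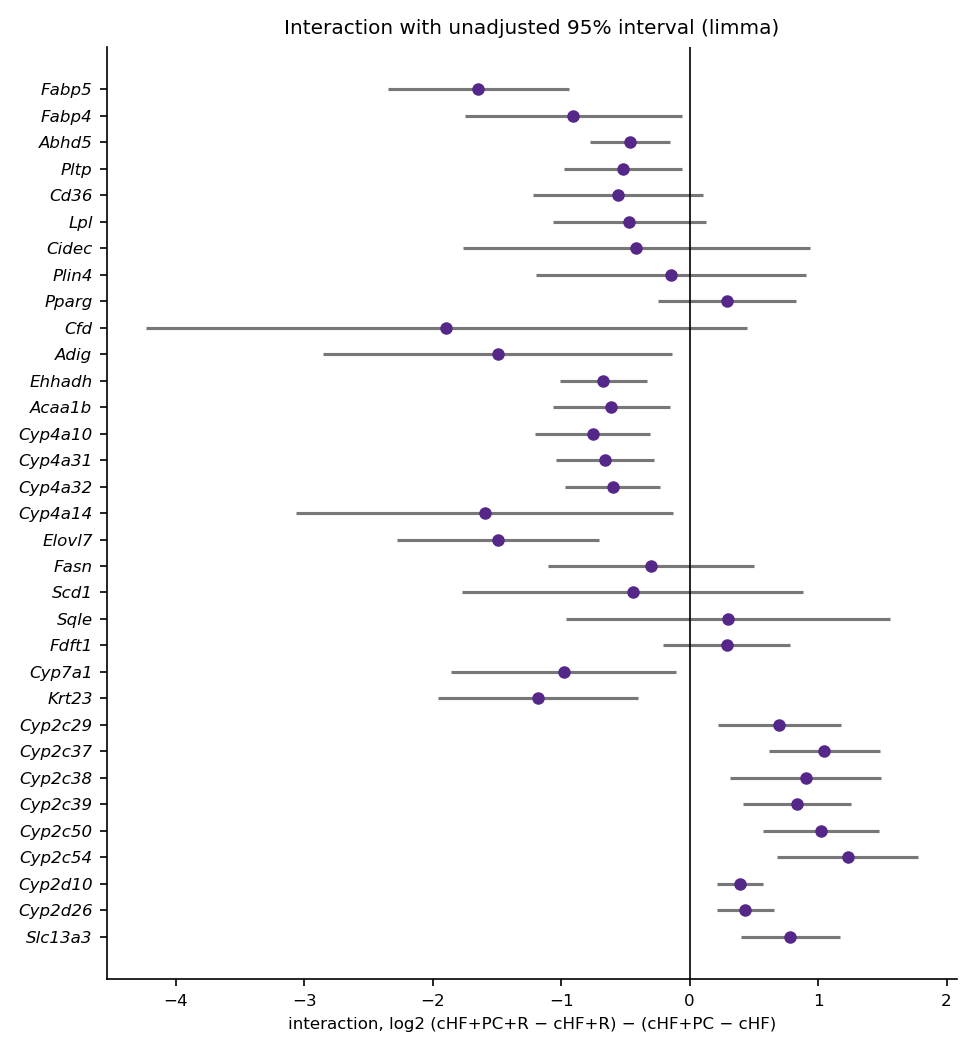
Interaction on the log2 scale (x axis; point, estimate; line, unadjusted 95% interval from limma) for a set of named genes (y axis), grouped by function, with a vertical line at 0. The intervals of Fabp5 and of the peroxisomal genes lie below 0, those of the Cyp2c genes lie above it, and those of Plin4, Cidec and Sqle cover it. No gene passed after adjustment over 19509 genes.

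Transcripts typical of adipocytes moved with the drug and varied widely within groups. Cfd, the adipocyte protease adipsin, ranged from -4.65 to -2.46 in cHF, from -6.07 to -2.56 in cHF+PC, from -1.26 to 2.95 in cHF+R and from -4.96 to 2.84 in cHF+PC+R. The highest cHF+PC+R value again belonged to replicate 6, and the next was -0.94. The interaction was -1.90 ± 1.14 (adjusted p = 0.806), from 28 values, and it was 2.67 with scaling between arrays. Adig, adipogenin, had -1.496 ± 0.66, which was -0.99 without cHF+R replicate 1, and its other probe had -0.24 ± 0.17.

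The adipocyte marker list was itself lower than the sum. Of its 8 genes, 5 were measured, all 5 with an interaction below 0 (10350 of all 19509 genes) and a median of -0.40. The defining markers Adipoq, Plin1 and Lep were well above background on at most 2 arrays. The mean log2 ratio of the 5 ranged from -1.25 to -0.66 in cHF, from -1.51 to -0.83 in cHF+PC, from -0.59 to 1.39 in cHF+R and from -1.49 to 1.19 in cHF+PC+R. It moved in the same direction as Fabp5, Fabp4 and Cidec, and its part in those results was not tested. Among other cell type lists, 14 of 16 Kupffer cell and macrophage markers were below the sum. Their median was -0.07, but 0.03 without cHF+R replicate 6. Also below were 8 of 10 lymphocyte, 5 of 5 neutrophil and 2 of 2 pancreatic acinar and muscle markers. Endothelial and stellate cell markers had 6 below and 6 above each, and 4 of 5 cholangiocyte and 3 of 4 erythroid markers were above. In bulk liver, fewer cells of a type and less RNA per cell cannot be told apart.

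Enzymes of peroxisomal and microsomal fatty acid oxidation, the classic targets of PPAR-alpha, also lay below the sum. Of 34 measured members none passed the threshold, 27 were below the sum and 7 above it (10350 and 9159 of all 19509 genes), with a median of -0.19. At an unadjusted p under 0.05, 8 were below (23.5% of the list, against 3.82% of all genes) and 0 above. The median kept its sign in all 45 alternatives, from -0.36 to -0.13, and was negative within 4 of 5 slides.

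Ehhadh, the bifunctional enzyme of peroxisomal beta-oxidation (chromosome 16, 21761914 to 21761973 in mm9), had a log2 ratio of -1.30, -0.91 and -0.64 (lowest, median and highest) in cHF. In cHF+PC it was -0.14, 0.17 and 0.70, in cHF+R it was -0.27, -0.05 and 0.52, and in cHF+PC+R it was 0.34, 0.47 and 0.69. Every supplemented liver was above every cHF liver, and livers given both spread least. Ehhadh rose by 1.12 with the phospholipids and by 0.97 with rosiglitazone, and by 1.41 with both, where the sum of the single changes was 2.08. The interaction was -0.67 ± 0.16 (limma adjusted p = 0.296) and was negative within 5 of 5 slides.

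The Cyp4a enzymes, which hydroxylate fatty acids at the omega end, had the same form. Cyp4a31 was -1.75, -1.37 and -1.09 in cHF, -0.65, -0.52 and -0.34 in cHF+R, -0.04, 0.14 and 0.45 in cHF+PC and 0.00, 0.47 and 1.26 in cHF+PC+R. The ranges of cHF, cHF+R and cHF+PC did not overlap, and that of cHF+PC+R overlapped cHF+PC only. It rose by 1.65 with the phospholipids and by 0.96 with rosiglitazone, with an interaction of -0.66 ± 0.19 (adjusted p = 0.506), and -0.82 ± 0.28 at its other probe.

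Cyp4a10 (-0.76 ± 0.22), Cyp4a32 (-0.60 ± 0.18) and Acaa1b (-0.61 ± 0.22), a peroxisomal thiolase, were picked from the same list after their values were seen. Cyp4a14 had an interaction of -1.60 ± 0.70, but only 20 arrays gave a value, 2 of them in cHF. It was -0.20 without cHF replicate 1 and -3.00 without cHF replicate 4. Probes of the closely related Cyp4a genes can bind each other's transcripts, so these are not independent counts.

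P450 enzymes of the Cyp2c family metabolise fatty acids, steroids and drugs in hepatocytes, and they were at the top of the genes above the sum. Their genes lie close together on chromosome 19 and are alike in sequence. The sequences below are array probes of Cyp2c37 and Cyp2c29 that cover the same place in both transcripts, aligned bases in the first part of Cyp2c37 and the last part of Cyp2c29. They show how little separates the targets at this place: in the overlap of 31 bases, 27 match, written in capitals outside the mismatches.
Cyp2c37: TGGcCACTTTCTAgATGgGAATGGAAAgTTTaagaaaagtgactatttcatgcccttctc
Cyp2c29: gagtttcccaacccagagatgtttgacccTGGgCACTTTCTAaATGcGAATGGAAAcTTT

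In mm9 these probes lie on the plus strand at chr19:40084382-40084441 and chr19:39403642-39403701. For Cyp2c54, a pair of probes overlaps along the transcript, with the 42 shared bases in capitals, and both are shown because they read the same RNA at one place and gave interactions of 1.00 ± 0.26 and 0.85 ± 0.24.
Cyp2c54 first probe: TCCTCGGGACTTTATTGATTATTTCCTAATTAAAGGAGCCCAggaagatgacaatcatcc
Cyp2c54 second probe: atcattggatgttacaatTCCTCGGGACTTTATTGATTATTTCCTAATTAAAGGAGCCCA

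The first of them spans chr19:40122119-40144700 on the minus strand, across an intron, and the second lies at chr19:40144659-40144718. The brightest probe of Cyp2c37, used below, is another one. It matches the Cyp2c29 probe in 21 of 51 bases, with a longest run of 5, and the Cyp2c50 probe in 35 of 40. Mismatched relatives can still bind such probes, so the values of the Cyp2c genes cannot be counted as independent of each other.

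Cyp2c37, by its brightest probe (chromosome 19, 40086467 to 40086526 in mm9), had a log2 ratio of -0.30, -0.10 and 0.14 (lowest, median and highest) in cHF and -0.33, 0.24 and 0.79 in cHF+PC. With rosiglitazone alone it was -1.72, -1.28 and -0.75, and with both it was -0.35, 0.16 and 0.46. Every drug-only liver was below every other liver, and livers given both lay among those without the drug. Cyp2c37 fell by 1.17 with rosiglitazone in cHF (adjusted p = 3.3e-05), against -0.12 in cHF+PC (adjusted p = 0.851). The interaction was 1.05 ± 0.21 (adjusted p = 0.156), and it was 0.87 ± 0.23 at the probe shown above.

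Cyp2c54 and Cyp2c50 followed. Cyp2c54 was -0.43, -0.04 and 0.26 in cHF, -0.42, 0.32 and 1.00 in cHF+PC, -2.12, -1.54 and -0.94 in cHF+R and -0.57, 0.26 and 0.52 in cHF+PC+R. Its drug-only livers were again below all others. The interaction was 1.23 ± 0.27 (adjusted p = 0.2) for Cyp2c54 and 1.02 ± 0.22 (adjusted p = 0.184) for Cyp2c50, and both were positive within 5 of 5 slides.

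Related genes were picked after their values were seen. Cyp2c38 had an interaction of 0.90 ± 0.29, with 0.20 ± 0.26 at a dimmer probe, Cyp2c39 had 0.84 ± 0.21 and Cyp2c29 had 0.70 ± 0.23. In the Cyp2d family, Cyp2d10 had 0.39 ± 0.09 (adjusted p = 0.231) and Cyp2d26 had 0.43 ± 0.11. Of the 30 measured P450 enzymes on the list, none passed the threshold, 24 were above the sum and 6 below it (9159 and 10350 of all 19509 genes). The median of 0.17 kept its sign in all 45 alternatives. At an unadjusted p under 0.05, 10 were above (against 2.81% of all genes) and 2 below (against 3.82%).

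Genes of foreign compound metabolism and bile acid handling leaned the same way, less stably. Of 40 xenobiotic genes, 5 were above the sum at an unadjusted p under 0.05 (against 2.81% of all genes) and 1 below (against 3.82%), with a median of 0.13 that was -0.09 with median centring of the arrays. Cyp3a25, a P450 enzyme, had 0.52 ± 0.16 (adjusted p = 0.605), and Abcc4, an export pump, had -0.67 ± 0.23. Nr1i3, the receptor CAR that drives many such genes, had 0.43 ± 0.20, picked after its value was seen. Of 23 bile acid genes, 6 were above and 1 below (against the same shares of all genes), with a median of 0.15 that was -0.04 with median centring.

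Cyp7a1, which sets the rate of bile acid synthesis, was the bile acid gene below the sum. It ranged from -0.48 to 1.13 in cHF (median 0.40), from -2.15 to -0.03 in cHF+PC (median -0.78), from 0.71 to 1.501 in cHF+R (median 0.81) and from -2.11 to 0.10 in cHF+PC+R (median -1.20). The phospholipid groups overlap each other, and the drug-only livers lie above both. With the phospholipids it fell by 1.13 in cHF and fell by 2.11 in cHF+R, and the interaction was -0.98 ± 0.43 (adjusted p = 0.72). Slco1a4, a bile acid and drug transporter, had 0.56 ± 0.21, and Akr1d1, the bile acid 5-beta-reductase, had 0.42 ± 0.16.

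The hepatocyte markers, measured the same way, had a median interaction of 0.13 over 13 genes, with 12 of 13 above 0 (9159 of all 19509 genes). Their mean log2 ratio had a median of 0.08 in cHF+R (from -0.13 to 0.36) and of 0.22, 0.24 and 0.26 in cHF, cHF+PC and cHF+PC+R. It moved with the P450, xenobiotic and bile acid genes, and its part in their values was not tested. The median of the hepatocyte list was -0.07 with median centring, so its sign was not kept.

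Among genes of sterol and fatty acid synthesis that the phospholipids lowered, Sqle, Fdft1 and Fasn had interactions whose 95% intervals cover 0, and that of Elovl2 lay above 0. Of 19 measured enzymes of cholesterol synthesis, 1 was above the sum at an unadjusted p under 0.05 (against 2.81% of all genes) and 0 below (against 3.82%). The median was 0.17, which turned to -0.04 at the lowest of the alternatives. Sqle, squalene epoxidase, was lowered by the phospholipids: it fell by 2.25 in cHF and fell by 1.96 in cHF+R, with an interaction of 0.30 ± 0.62 and a 95% interval from -0.96 to 1.56. Fdft1, squalene synthase, fell by 0.94 in cHF and fell by 0.66 in cHF+R (interaction 0.29 ± 0.24). Acat2, which joins acetyl-CoA units, was the member above the sum, at 0.22 ± 0.08.

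In fatty acid synthesis, 20 genes had a median interaction of -0.16, which was 0.11 with scaling between arrays. At an unadjusted p under 0.05, 2 were below (against 3.82% of all genes) and 1 above (against 2.81%). Fasn, the fatty acid synthase, fell by 1.21 in cHF and fell by 1.51 in cHF+R with the phospholipids, and its interaction was -0.30 ± 0.39. Scd1, the stearoyl-CoA desaturase, rose by 1.86 with the drug in cHF, and its interaction of -0.44 ± 0.65 was 0.71 with scaling between arrays. Elovl2, an elongase of polyunsaturated fatty acids, had 0.38 ± 0.15, and Pnpla3, a lipid droplet protein, had -0.71 ± 0.33, picked after its value was seen.

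Elovl7, an elongase of saturated long chains, had the lowest interaction of that list, -1.49 ± 0.38 (adjusted p = 0.389), but its probe was dim. It was not well above background on any cHF or cHF+PC array, so its level there is only a bound. The probe passed on 6 of 6 arrays in cHF+R and 3 of 8 in cHF+PC+R, and met the filter of 6 arrays only through cHF+R. Such a filter favours a negative interaction, so the p-value of Elovl7 is no support for one. Within cHF+R its log2 ratio ran from -0.30 to 2.38, with replicates 1 (2.38) and 3 (1.81) far above the other 4 livers.

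**Figure D4:**
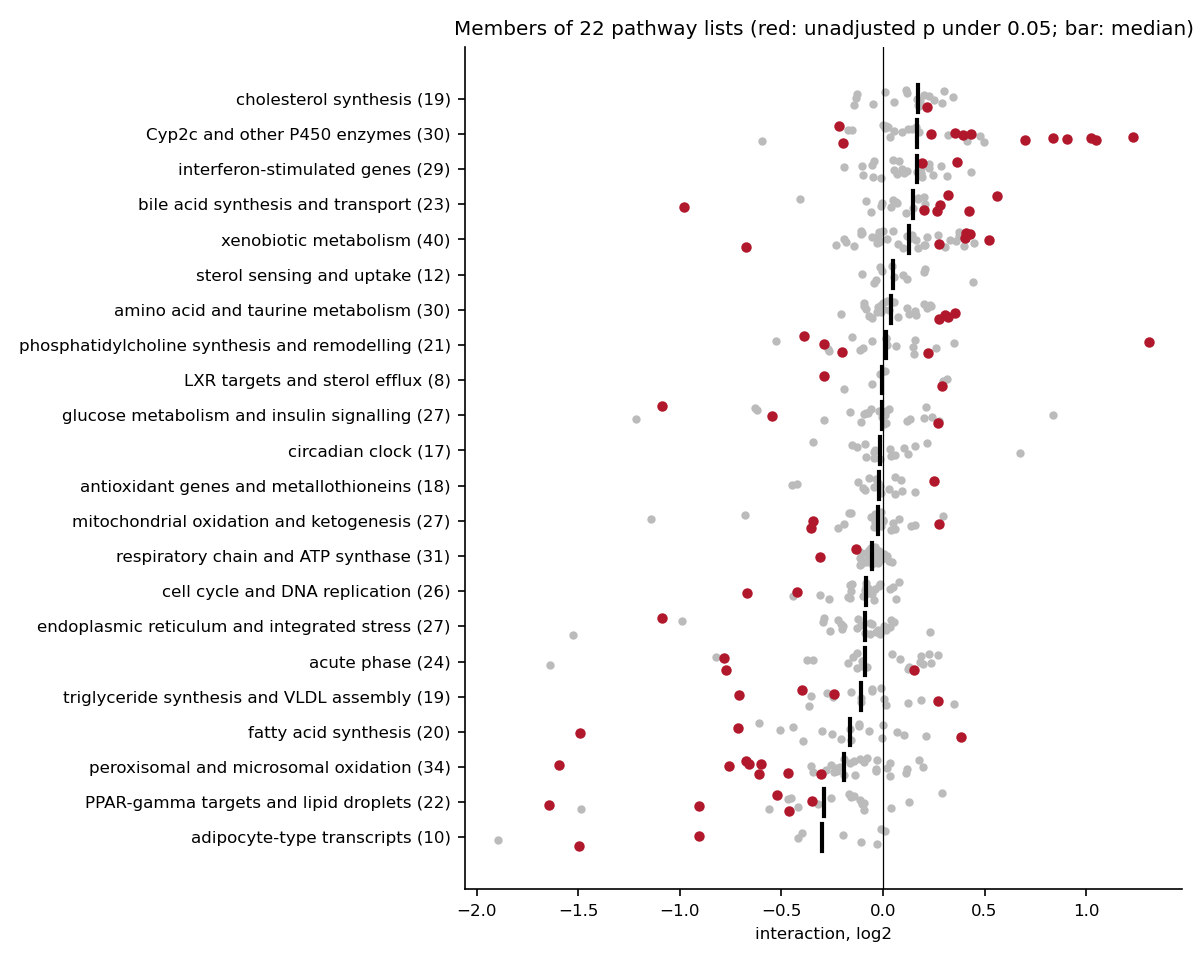
Interaction on the log2 scale (x axis) of each measured member of 22 pathway lists (y axis, with the number measured), ordered by the list's median (black bar). Red points have an unadjusted p under 0.05 from limma. Medians run from -0.30 for adipocyte-type transcripts to 0.17 for cholesterol synthesis, and no member passed after adjustment.

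Among the other genes with the smallest p, effects were smaller or the genes less well known in liver. Slc13a3, a transporter of dicarboxylates, ran from 0.15 to 1.01 in cHF, from -0.36 to 0.44 in cHF+PC, from -1.11 to -0.42 in cHF+R and from -0.67 to 0.08 in cHF+PC+R. With rosiglitazone it fell by 1.38 in cHF and fell by 0.60 in cHF+PC, and the interaction was 0.78 ± 0.19 (limma adjusted p = 0.275). Oaz1, the antizyme that restrains polyamine synthesis, had 0.31 ± 0.07, and 0.28 ± 0.07 at its other probe, but -0.0016 from the Cy5 channel alone. Aldh16a1, of the aldehyde dehydrogenase family, had 0.27 ± 0.06, and Zfp580, a zinc finger protein, had 0.22 ± 0.05. LOC640017 and ENSMUST00000093985, named only by the file, had 0.27 each.

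Below the sum, Fam183b had -1.91 ± 0.45 (adjusted p = 0.275), with 23 of 29 arrays well above background and 2 of 8 in cHF+PC. It rose by 2.57 with rosiglitazone in cHF. Tlcd5, a membrane protein, had -0.47 ± 0.10, and Tomm5, a subunit of the mitochondrial import pore, had -0.31 ± 0.08. Gm5391 and LOC100047826 had -0.19 ± 0.05 and -0.24 ± 0.06.

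Smcp, known as a capsule protein of sperm mitochondria, had -0.72 ± 0.15 (adjusted p = 0.156). Its probe was well above background on 9 of 29 arrays and on none in cHF+PC, where its level is only a bound. It was so on 6 of 6 arrays in cHF+R, 1 of 7 in cHF and 2 of 8 in cHF+PC+R. The probe thus met the filter of 6 arrays only through cHF+R, where it was highest. Such a filter favours a negative interaction, so the p-values of Smcp are no support for one. Without cHF+PC+R replicate 6 the interaction was -0.80 (adjusted p = 0.00854, in a range over the alternatives from 0.00854 to 0.713).

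Krt23, a keratin, had the strongest phospholipid effect of the named genes. It ranged from -3.45 to -2.39 in cHF, from -0.09 to 1.49 in cHF+PC, from -2.76 to -1.62 in cHF+R and from -0.89 to 1.01 in cHF+PC+R. Both phospholipid groups lay above both groups without phospholipids. It rose by 3.58 in cHF and by 2.40 in cHF+R, with an interaction of -1.18 ± 0.38 (adjusted p = 0.605) that was negative within 5 of 5 slides.

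Stress and acute phase genes held single members below the sum. Trib3, a pseudokinase of the integrated stress response, rose by 1.27 with the phospholipids and by 1.05 with the drug, with an interaction of -1.09 ± 0.39. Apcs, serum amyloid P, rose by 1.15 with the drug in cHF and had -0.77 ± 0.25, with cHF+R replicate 1 at 2.20 and the group's median at 0.58. Without that liver it was -0.50. Saa1, serum amyloid A, had -0.78 ± 0.35 and no single effect past the threshold. Of 24 acute phase genes, 2 were below (against 3.82% of all genes) and 1 above (against 2.81%) at an unadjusted p under 0.05. The sign of the median (-0.09) turned in 3 alternatives.

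In the list of cell cycle and DNA replication, Cdkn1a, the inhibitor p21, had -0.67 ± 0.22 and Gadd45b had -0.42 ± 0.20. Of its 26 members, 22 were below the sum (10350 of all 19509 genes), with a median of -0.09. In phosphatidylcholine metabolism, the pathway of the supplement itself, 21 genes had a median of 0.01, whose sign turned in 16 alternatives. At an unadjusted p under 0.05, 2 were above (against 2.81% of all genes) and 3 below (against 3.82%). Mfsd2a, which imports lysophosphatidylcholine that carries DHA, had 1.31 ± 0.55 (adjusted p = 0.72), Cept1 had 0.22 ± 0.10 and Chdh, choline dehydrogenase, had -0.20 ± 0.09, all 3 picked after their values were seen. Lpcat3, which places polyunsaturated fatty acids in phospholipids, had -0.29 ± 0.10, and Pla2g6, a phospholipase, had -0.39 ± 0.13. Of 19 genes of triglyceride synthesis and VLDL assembly, 3 were below and 1 above at that p (against the same shares of all genes). Gpat3, an acyltransferase, had -0.71 ± 0.28 and Mogat2 had -0.40 ± 0.16, which was -0.24 without cHF+R replicate 1. Gpat4 (-0.24 ± 0.11) and Apoc2 (0.27 ± 0.11) were picked after their values were seen.

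The remaining lists held few members with an unadjusted p under 0.05. Over all genes, 2.81% were above the sum at that p and 3.82% below it. The 29 interferon-stimulated genes had a median of 0.17, which kept its sign in all alternatives. Within slides it was positive on 3 and negative on 2, from -0.51 to 0.61. Stat2, a transcription factor of interferon signalling, had 0.37 ± 0.14 from 21 values. Of 27 genes of mitochondrial oxidation and ketogenesis, 2 were below, Acadm (-0.36 ± 0.14) and Eci1 (-0.34 ± 0.14), and 1 above, Cpt1a (0.28 ± 0.12), the carnitine palmitoyltransferase of the liver. Of 31 genes of the respiratory chain, 2 were below, Cycs (-0.31 ± 0.13) and Sdhc (-0.13 ± 0.06), and 0 above. That is 6.45% of the list, against 6.63% of all genes. At any p, 26 of 31 members were below the sum (10350 of all 19509 genes), by small amounts (median -0.05). Of 30 amino acid genes, 4 were above, Asl (0.32 ± 0.13), Ahcy (0.28 ± 0.11), Cdo1 (0.31 ± 0.13) and Cth (0.35 ± 0.15). Cpt1a, Cdo1 and Cth were picked after their values were seen.

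No clock gene of 17 and no sterol sensing gene of 12 had an unadjusted p under 0.05. Over all genes the share was 6.63%, with 2.81% above the sum and 3.82% below it. In glucose metabolism 2 of 27 genes were below, Trib3 and Irs2 (-0.55 ± 0.25, picked after its value was seen), and 1 above, Enpp1 (0.27 ± 0.12). Of 18 antioxidant genes, 1 was above, Prdx6 (0.25 ± 0.08), which was -0.03 with median centring and 0.09 to 0.15 at its other probes. Of 8 genes on the list of LXR targets and sterol efflux, 1 was above, Abcb4 (0.29 ± 0.12), and 1 below, Lpcat3.

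Every slide held at most 1 array of a group, and 5 of the 8 slides held all 4 groups, so the contrast was also taken within each of them. For Fabp5l2 it ran from -3.20 to -0.996, for Cyp2c37 from 0.69 to 1.99 and for Ehhadh from -1.40 to -0.51, all on 1 side of 0. For Plin4 it ran from -2.23 to 1.13, and for Cidec from -3.29 to 0.87. The values above 0 for Plin4, Cidec and Cyp4a31 (0.17) all came from slide 8, which holds cHF+R replicate 6. Each of these values rests on 4 arrays and has no replicate. They reuse arrays of the main fit. A gene named for its small interaction p therefore tends to keep its sign on each slide. Such agreement, here or above, is no further support. With the slide as a block, 0 genes passed the threshold (1592 at an unadjusted p under 0.05).

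**Figure D5:**
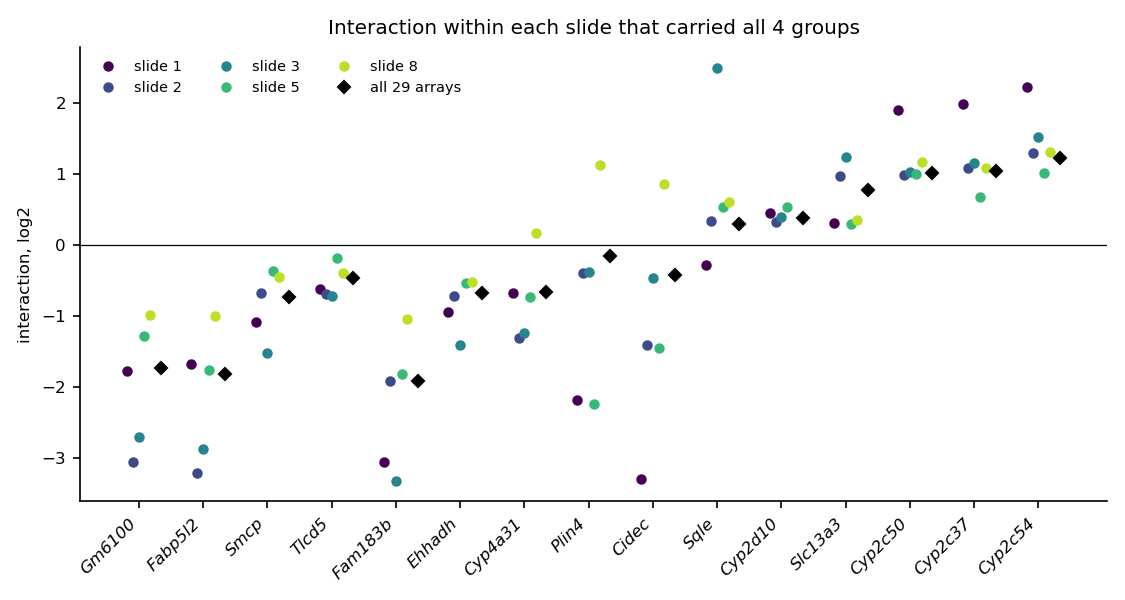
Interaction on the log2 scale (y axis) for 15 named genes (x axis), with 1 coloured point per slide that carried all 4 groups and a black diamond for the fit over all 29 arrays. The points of Gm6100, Fabp5l2 and Ehhadh lie below 0 on every slide and those of the Cyp2c genes above it, and those of Plin4, Cidec and Cyp4a31 fall on both sides.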

How the data were processed

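Per the labels, 1000 ng of RNA per liver was split and labelled with both dyes, the Cy3 products were pooled as a common reference, and no dyes were swapped. Per the file headers, the deposited scanner files hold linear spot intensities of both channels made by Feature Extraction 10.5.1.1 (Agilent), not normalized between arrays, and probe positions in mm9. The authors also deposited a log2 value table of 25806 probes with a median of 9.03 in every column. Of its 29 columns, 27 followed their own array's Cy5 intensity best (r from 0.990 to 0.999), so it is on the log2 scale and follows Cy5 with no ratio taken. Its centring across arrays and normalization are not given in the sources used here, and it served as an alternative.

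Intensities were background-corrected (normexp, offset 50) and loess-normalized within arrays in R 4.3.3 (limma 3.58.1; files read with data.table, version 1.17.8). Control spots and spots marked as outliers were left out, and spots of a probe were averaged. Kept were probes with values on at least 20 arrays that passed the scanner's background flag in Cy5 on 6 or more (23981 of 39429), and a gene took its brightest probe. Names came from accession (26412 probes), symbol (3854) or synonym (735), matched to GRCm38.p6, and 8428 probes keep the file's name. A model of 4 group means was fitted to all 29 arrays (25 residual degrees of freedom, lmFit and eBayes). Tests are two-sided, adjusted by Benjamini-Hochberg over 19509 genes, with a threshold of 0.05. Rose and fell refer to it, and errors are standard errors. The replicates are livers of separate mice. The fit was tested on simulated data.

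The 70 genes named by rule are, per direction, the 10 of smallest p, up to 2 members of smallest p per pathway list, and a set of anchor genes of lipid metabolism. One of them is not reported here. Others were added after their values were seen, as the text says of each. Of these, 8 were taken through the alternatives, the slides and the check for livers that stand apart. Hilpda, Nr1i3, Pnpla3, Mfsd2a, Cept1, Chdh, Gpat4, Apoc2, Cpt1a, Cdo1, Cth and Irs2 were not, so their dependence on single livers or processing is not known. The 22 pathway and 10 cell type lists, and the members, were chosen with earlier results of these data known. Counts and medians over lists, and the signs they keep, are therefore descriptions. Alternatives were other background corrections and normalizations, the value table, other filters and probe rules, slide or replicate number as blocks, leaving out each array, weighting arrays and letting the prior variance follow intensity. No genome was used here.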

Additional observations from a re-analysis of the deposited data

Results flagged for a closer look

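In 22 of 307 groups of 4 to 10 livers examined over the named genes (7.17%), the highest or lowest liver stood apart from the rest of its group by Dixon's criterion, which chance meets in about 1 in 20. The values are log2 ratios to the pool.

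Of lipid storage and adipocyte-type genes, the livers apart were cHF+PC+R replicate 6 for Abhd5 (highest, 0.48) and Adig (highest, 1.44), cHF+R replicate 6 for Abhd5 (lowest, -0.0907) and Lpl (highest, 1.504), cHF replicate 1 for Cd36 (lowest, -1.73) and cHF+PC replicate 8 for Pltp (highest, -0.22). Of fatty acid oxidation genes, cHF+PC+R replicate 4 was highest for Cyp4a14 (2.43) and Cyp4a32 (1.26). In synthesis of lipids and sterols, they were cHF+R replicate 2 for Acat2 (highest, -0.10), cHF+R replicate 5 for Fdft1 (highest, 0.49), cHF replicate 7 for Elovl7 (highest, -0.11) and cHF+PC replicate 2 for Mogat2 (lowest, -0.39).

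Of other genes, cHF+R replicate 1 was highest for Apcs (2.20), cHF+PC replicate 2 highest for Psat1 (2.05), which makes serine, and cHF replicate 2 lowest for Slco1a4 (-0.64). The clock genes were Cry2 in cHF+PC+R replicate 4 (lowest, -0.36) and Rora in cHF replicate 1 (highest, 0.40). For the respiratory chain, cHF+PC replicate 6 was lowest for Cycs (-0.53) and highest for Sdhc (0.0875). The others were Oaz1 in cHF replicate 3 (highest, 0.38), LOC100047826 in cHF+PC replicate 5 (highest, 0.28) and ENSMUST00000093985 in cHF+PC replicate 4 (lowest, -0.31). The liver of cHF+PC+R replicate 4 had the most, 3.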

How the results depend on the processing

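The count of 0 genes past the threshold held in 43 of 45 alternatives. It was 3 with array weights (Fabp5, Fabp5l2 and Gm6100) and ranged from 0 to 4 over arrays left out, with 4 (those and Smcp) without cHF+PC+R replicate 6. Of these, Smcp met the filter on dim probes only through cHF+R. The cause of the changed counts was not tested. The replicate numbers do not pair the livers (same-numbered livers had correlations of deviations with a lowest value of -0.353 and a median of 0.0177), and with the replicate block the count was 0 (1369 at an unadjusted p under 0.05).

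Of the named genes taken through the alternatives, 12 changed sign in some alternative, and the cause was not tested. Plin4 was 0.13 without background subtraction, 0.14 with Feature Extraction's processed signals, 1.75 with scaling between arrays, 0.04993 from Cy5 alone, 0.15 in the deposited value table and from -0.31 to 0.0543 over arrays left out, above 0 without each of 6 arrays. Scaling between arrays also gave 0.0758 for Acadm, 0.0042 for Cd36, 2.67 for Cfd, 0.71 for Scd1, 1.21 for Cidec and -0.0687 for Prdx6. Median centring gave -0.0292 for Prdx6 and -0.0235 for Cry2, Cy5 alone gave -0.0016 for Oaz1, array weights gave -0.10 for Sqle, and the slides with all 4 groups gave -0.0596 for Insig2 and -0.0167 for Pparg.

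Counts at an unadjusted p under 0.05 ran from 1133 to 1596 over arrays left out and from 209 to 2026 otherwise. Over all alternatives the single-effect counts ran from 10 to 1238 for the phospholipids in cHF and from 53 to 1975 in cHF+R, and for rosiglitazone from 79 to 800 in cHF and from 0 to 161 in cHF+PC. The last was 10 without cHF+PC+R replicate 6 and 56 without cHF+PC+R replicate 2.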
